A study of Homo sapiens with 8 samples.

Results

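Integrin and laminin chains were followed in Rh41 cells, a human alveolar rhabdomyosarcoma line. Rhabdomyosarcoma is a childhood soft-tissue cancer whose cells express part of the muscle programme. RNA was read in 8 libraries. The genes were chosen by symbol alone, as the numbered integrin alpha and beta chains (ITGA and ITGB followed by a number, with ITGA2B) and the numbered laminin chains (LAMA, LAMB and LAMC). Of 60234 genes in the deposited table, 32 met that rule: 12 integrin alpha chains, 8 integrin beta chains and 12 laminin chains. ITGB3 was listed under 2 identifiers, and the one with the higher mean was kept. All 8 libraries came from the same cell line, which carries the PAX3-FOXO1 fusion gene. By their labels 4 libraries are controls and 4 are siG9a libraries, in which G9a, the histone H3 lysine 9 methyltransferase encoded by EHMT2, was knocked down. The series title writes shG9a where the sample titles write siG9a. The labels name neither the control reagent nor the time after knockdown, and whether each library is a separate culture is given only as 4 biological replicates in the design text. P-values therefore measure the spread between these libraries.

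Integrins are cell surface receptors made of 1 alpha and 1 beta chain, and the pair decides which matrix protein is bound. Laminins are secreted trimers of an alpha, a beta and a gamma chain that form the sheet of the basement membrane, and the alpha chain carries most of the sites that integrins and dystroglycan bind. In skeletal muscle the basement membrane surrounds each fibre, and the pair of ITGA7 and ITGB1 is a main laminin receptor there.

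Values are CPM (reads of a gene scaled to the library total) from QuantSeq, which reads the 3′ ends of transcripts, so that levels of different genes can be set side by side without a correction for length. Library totals ran from 1458825 to 1938665 reads, 1 read was worth between 0.516 and 0.685 CPM, and the floor used for detection, 3 reads, lay between 1.55 and 2.06 CPM. EHMT2 had 57.58, 68.06, 87.32 and 88.27 CPM in control replicates 1 to 4 and 19.6, 35.1, 33.11 and 58.5 CPM in siG9a replicates 1 to 4. It was lower in siG9a in 4 of 4 pairs, and the groups overlapped by 1 library (exact permutation test, two-sided p = 0.0571). Its log2 difference was -1.10, with an adjusted p of 0.191 in limma with Benjamini-Hochberg adjustment and of 0.000472 when limma took the replicate number as a block, here called the paired fit. Replicate 3 stood apart in both groups: markers of rhabdomyosarcoma and skeletal muscle summed to 269.34 CPM in control replicate 3 and 227.23 CPM in siG9a replicate 3, against 886.7 to 1759.63 CPM in the other libraries. The neurofilament genes NEFM and NEFL were the main part of the Schwann and neural marker sum, which reached 9604.52 and 8933.97 CPM in replicate 3. In this sum replicate 1 stood apart too, at 186.45 CPM in control and 228.52 CPM in siG9a. Replicates 2 and 4 lay between 1818.66 and 2957.27 CPM. SOX10, a defining marker of Schwann cells, was at 0 in every library. Mitochondrial genes took 4.59% to 9.18% of control reads and 5.21% to 13.7% of siG9a reads, more in siG9a in 4 of 4 pairs, and its part in the results below was not tested. Endothelial markers summed to between 1.23 and 2.08 CPM in control and between 0 and 0.57 CPM in siG9a, on at most 4 reads of any gene, with CDH5, KDR and CLDN5 at 0.

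In the paired limma fit, transcripts of 1 laminin alpha chain and 4 integrin chains were called lower after G9a knockdown. Limma on all 8 libraries without the block called none of them. For 1 of them, ITGB5, the call held in 6 of 15 paired alternatives. LAMA1, ITGA1, ITGA4 and ITGA7 were each called in 14 of 15, all but eBayes without trend, which called 0 of all genes. The laminin beta and gamma chains that were most abundant differed by less than the spread between libraries. Of the 32 genes, 23 had a mean of at least 1 CPM over the 8 libraries and were tested, and 9 were below that level. In the paired fit 5 of the 23 fell and none rose: LAMA1, ITGA1, ITGA4, ITGA7 and ITGB5. Beside these stands a background of 1717 of 15092 genes called in either direction (11.4%), with 6.52% called lower and 4.86% called higher. The paired edgeR test on recovered reads called the same 5 genes, against 6.59% of all genes called lower, and paired DESeq2 called LAMA1, ITGA1, ITGA4 and ITGA7, against 4.19%. The limma fit without the block called 0 of the 23 and 0 of all genes, a background of 0.0%. Of the 23, 4 had an unadjusted limma p under 0.05 without the block, against 12.5% of all genes. Without the block edgeR called 0 of the 23, and DESeq2 called ITGA1 and LAMA1, both lower, against 1.28% of all genes called lower.

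The log2 difference was below 0 in 17 of the 23 genes and above 0 in 6, with a median of -0.48, and over all 15092 genes it was below 0 in 7373 and above 0 in 7719, with a median of 0.01. Values were lower in siG9a in 4 of 4 replicate pairs for 10 of the 23, against 15.3% of all genes tested, and higher in 4 of 4 pairs for 1, LAMB2, against 14.9%. The siG9a libraries lay wholly below the control libraries for LAMA1 and LAMA5, against 3.45% of all genes, and wholly above them for none, against 3.88%. In bulk RNA such as this, fewer cells of a type and less RNA per cell cannot be told apart.

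**Figure D1:**
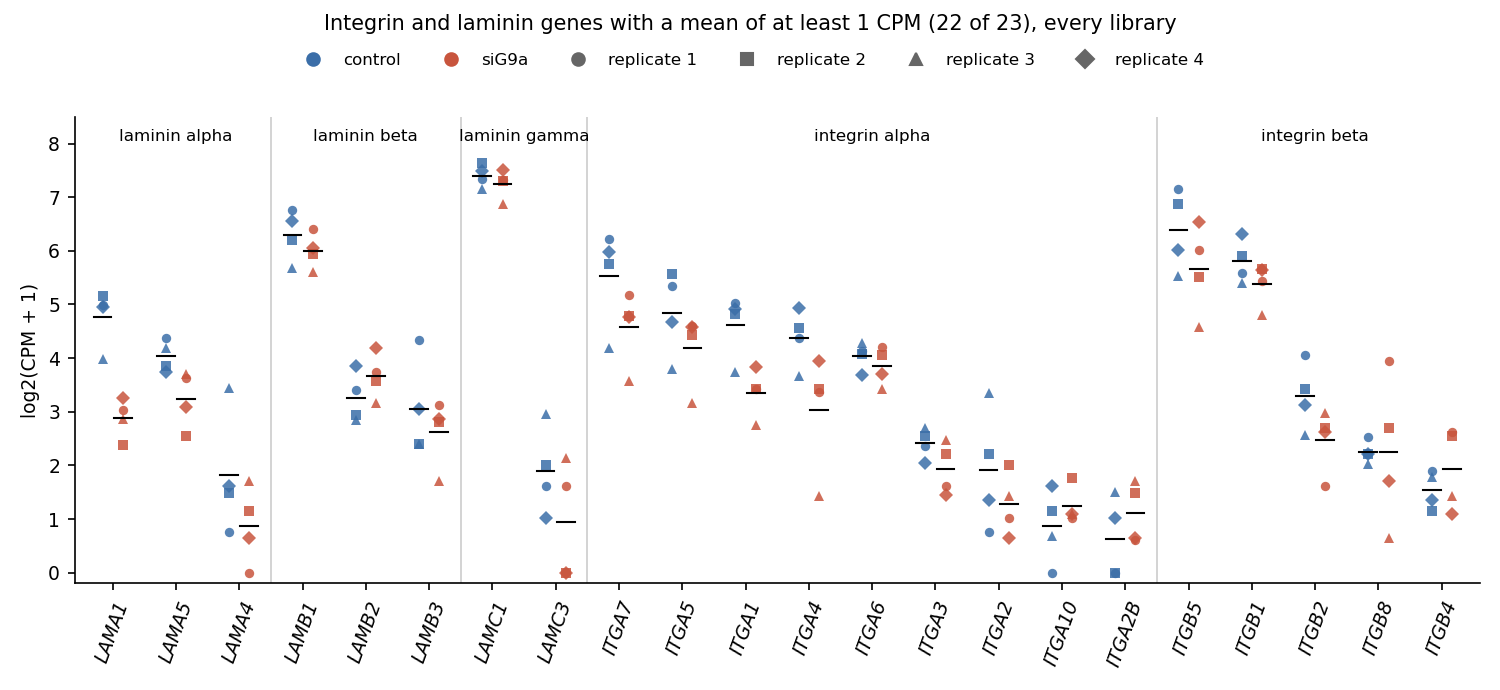
Level of 22 of the 23 tested integrin and laminin genes in every library, as log2(CPM + 1) on the y axis, with genes along the x axis grouped by chain. Blue marks control, red marks siG9a, the marker shape gives the replicate number and black bars are group means. LAMC1 is the highest gene in both groups, LAMA1 is separated by group, and the triangles of replicate 3 lie lowest in both groups for 10 genes.

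LAMA1 (ENSG00000101680), the alpha chain of early embryonic basement membranes, was at 30.85, 34.64, 14.76 and 30.12 CPM in control replicates 1 to 4 and at 7.22, 4.24, 6.28 and 8.6 CPM in siG9a. Every siG9a library was below every control library, and control replicate 3 was the lowest of its group. Control averaged 27.6 ± 8.78 CPM and siG9a 6.58 ± 1.83 CPM (SD, n = 4), or 23.9% of the control level. The log2 difference was -1.88 with SE 0.30 in the paired limma fit (Benjamini-Hochberg adjusted p = 0.000178) and SE 0.35 without the block (limma adjusted p = 0.0898). The exact permutation test gave p = 0.0286, the smallest that 4 against 4 libraries allow. The siG9a values rest on 14, 7, 11 and 15 reads, and the 95% Wilson interval of control replicate 3, 9.92 to 21.96 CPM, overlaps those of siG9a replicates 1, 3 and 4 (up to 14.19 CPM) and not that of siG9a replicate 2 (2.05 to 8.75 CPM). These intervals cover counting error only. Without replicate 3 in both groups the paired log2 difference was -2.14 (limma adjusted p = 0.000484).

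LAMA5 (ENSG00000130702), the alpha chain found widely in mature basement membranes, was at 19.88, 13.37, 17.22 and 12.46 CPM in control and at 11.35, 4.84, 11.99 and 7.46 CPM in siG9a. The groups did not overlap, although the gap between the lowest control and the highest siG9a library was small. The means were 15.7 ± 3.45 and 8.91 ± 3.37 CPM (SD, n = 4), an exact permutation p of 0.0286, and the log2 difference of -0.80 did not pass in limma, with adjusted p = 0.368 without the block and 0.0799 with it. ADRM1, on the opposite strand across the last 1000 bases of LAMA5, was at 294 and 271 CPM, and its part in the LAMA5 values was not tested. LAMA4, a chain of vessel and muscle laminins, averaged 3.61 CPM in control, carried by 9.84 CPM in control replicate 3, and 1.01 CPM in siG9a (paired limma adjusted p = 0.182). LAMA2, the alpha chain of adult muscle laminin, had 8 reads in all 8 libraries together and LAMA3, the alpha chain of epithelial laminin, had 7, and both were under the filter.

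Summed over the 5 laminin alpha genes, the level was 52.11, 51.05, 43.66 and 46.22 CPM in control and 19.6, 11.51, 21.12 and 17.2 CPM in siG9a. The sum in siG9a was 36.0% of that in control, and no siG9a library reached the lowest control library. Control replicate 3, low for LAMA1, was close to the other controls in this sum, with LAMA4 at 9.84 CPM and LAMA5 at 17.22 CPM. LAMA5 made up 32.7% ± 7.08 of the laminin alpha reads in control and 50.0% ± 8.46 in siG9a (SD, n = 4), with ranges of 26.2% to 39.4% and 42.1% to 57.9%. The alpha chain reads were thus fewer in siG9a and held relatively more LAMA5. Sums and shares are given as values with no test.

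The beta and gamma chains are the partners with which each alpha chain is assembled. LAMB1 (ENSG00000091136), the common beta chain, was at 106.94, 72.31, 50.42 and 93.46 CPM in control and at 83.56, 60.53, 47.96 and 65.38 CPM in siG9a. It was lower in siG9a in 4 of 4 pairs, but the groups overlapped widely and the log2 difference of -0.30 did not pass (limma adjusted p = 0.709, paired 0.280). LAMC1 (ENSG00000135862), the gamma chain shared by most laminins, was the most abundant of the 32 genes, at 160.4, 196.87, 140.82 and 178.62 CPM in control and 159.39, 156.15, 116.47 and 180.65 CPM in siG9a. Its means were 169 ± 24.1 and 153 ± 26.8 CPM (SD, n = 4), and its log2 difference of -0.15, with SE 0.20, was smaller than the spread between libraries (limma adjusted p = 0.827, paired 0.574).

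Set against LAMC1 in the same library, LAMA1 gave 19.2, 17.6, 10.5 and 16.9 reads per 100 LAMC1 reads in control and 4.53, 2.71, 5.39 and 4.76 in siG9a. This ratio did not overlap between the groups, also in replicate 3. LAMB1 gave 47.9 ± 14.6 reads per 100 LAMC1 reads in control and 42.1 ± 7.15 in siG9a (SD, n = 4), which did overlap. Summed alpha chains gave 27.5 ± 3.05 reads per 100 gamma chain reads in control and 11.3 ± 4.20 in siG9a (SD, n = 4).

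LAMB2, the beta chain of synaptic and adult muscle laminins, was the only tested gene of the 32 that was higher in siG9a in 4 of 4 pairs, with 8.98 ± 3.37 CPM against 12.1 ± 3.85 CPM (SD, n = 4). The groups overlapped and the log2 difference of 0.41 did not pass (limma adjusted p = 0.700, paired 0.436). Its share of laminin beta reads was between 7.07% and 11.8% in control and between 11.9% and 19.4% in siG9a, groups that touch without overlapping. LAMB3, a chain of epithelial laminin, averaged 8.75 CPM in control, led by 19.19 CPM in control replicate 1, and 5.59 CPM in siG9a. LAMC3 averaged 3.23 and 1.37 CPM. Neither passed in either limma fit. LAMB4 had no read in any library, which allows up to 2.06 CPM in the shallowest one.

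**Figure D2:**
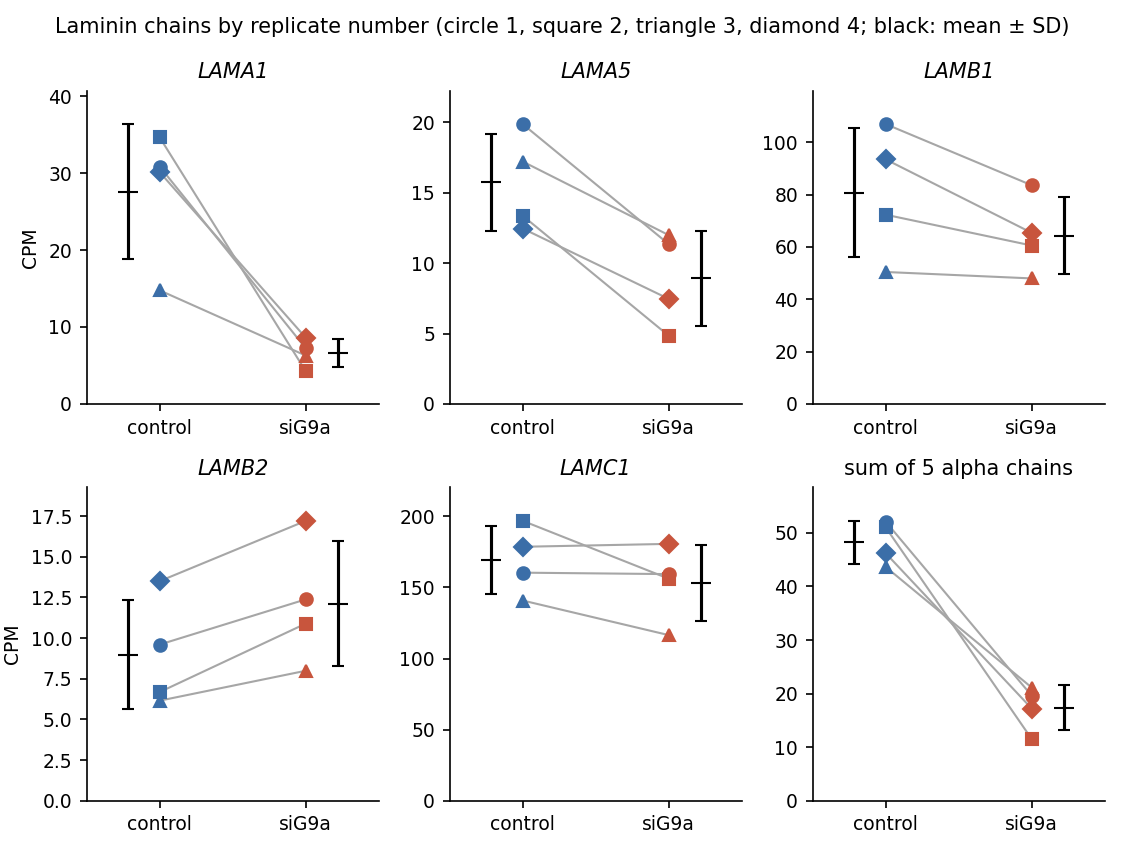
CPM of 5 laminin chains and of the sum of the 5 alpha chains, on y axes that start at 0, with grey lines joining control and siG9a libraries of the same replicate number. Marker shapes give the number, and black bars are mean ± SD (n = 4). LAMA1 and the alpha sum are separated by group, and LAMC1 keeps overlapping values around 169 and 153 CPM.

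Among the integrins, 4 of the 14 tested chains fell in the paired fit, 3 of them alpha chains. ITGA1 (ENSG00000213949), which pairs with ITGB1 to bind collagen, including the type found in basement membranes, was at 31.53, 27.34, 12.3 and 29.08 CPM in control and at 9.8, 9.68, 5.71 and 13.19 CPM in siG9a. The groups overlapped only in control replicate 3, which was below siG9a replicate 4, and the siG9a mean of 9.60 ± 3.06 CPM was 38.3% of the control mean of 25.1 ± 8.68 CPM (SD, n = 4). The log2 difference was -1.27 with SE 0.27 in the paired limma fit (Benjamini-Hochberg adjusted p = 0.00269) and SE 0.37 without the block (limma adjusted p = 0.207). The exact permutation test gave p = 0.0571. Without replicate 3 the call was kept (paired limma adjusted p = 0.00791). PELO, whose exons overlap those of ITGA1 on the same strand, averaged 4.865 CPM in control and 5.575 CPM in siG9a. Its part in the ITGA1 values was not tested. The other collagen-binding chains were low. ITGA2 averaged 3.78 CPM in control, led by 9.22 CPM in control replicate 3, and 1.58 CPM in siG9a. ITGA10 averaged 0.978 and 1.44 CPM, and ITGA11 had 11 reads in all, more in siG9a in each pair.

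ITGA4 (ENSG00000115232), which binds fibronectin and the adhesion molecule VCAM1, was at 19.88, 22.48, 11.68 and 29.6 CPM in control and at 9.28, 9.68, 1.71 and 14.34 CPM in siG9a. It was lower in 4 of 4 pairs, with replicate 3 lowest in both groups, and the value of siG9a replicate 3 rests on 3 reads. The mean fell from 20.9 ± 7.4 CPM in control to 8.75 ± 5.23 CPM in siG9a (SD, n = 4), with a log2 difference of -1.35 with SE 0.30 (paired limma adjusted p = 0.00440, and 0.307 without the block). Without replicate 3 the difference was -1.05 (paired limma adjusted p = 0.0419). Its close relative ITGA9 had 2 reads in all libraries.

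Promoter sequence is shown for both of these lowered alpha chains and for LAMC1, the abundant chain that did not pass the test. The windows lie before the transcription start in RefSeq annotation of GRCh38.p14, on the plus strand, and are written 5′ to 3′. They end before the first transcript start in GENCODE release 29, so ITGA1 has 230 bases, ITGA4 66 and LAMC1 250. Capitals mark CANNTG, the E-box, a motif that MYOD1 and other bHLH factors bind. The pattern CANNTG, though not every match to it, reads the same on both strands.
ITGA1, chr5:52787666-52787895: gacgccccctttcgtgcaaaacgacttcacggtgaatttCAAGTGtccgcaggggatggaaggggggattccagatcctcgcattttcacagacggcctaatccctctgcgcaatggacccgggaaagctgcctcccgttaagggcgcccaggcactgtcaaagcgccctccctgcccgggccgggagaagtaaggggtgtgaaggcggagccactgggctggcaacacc
ITGA4, chr2:181457136-181457201: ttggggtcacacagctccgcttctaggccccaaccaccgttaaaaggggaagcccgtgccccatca
LAMC1, chr1:183023170-183023419: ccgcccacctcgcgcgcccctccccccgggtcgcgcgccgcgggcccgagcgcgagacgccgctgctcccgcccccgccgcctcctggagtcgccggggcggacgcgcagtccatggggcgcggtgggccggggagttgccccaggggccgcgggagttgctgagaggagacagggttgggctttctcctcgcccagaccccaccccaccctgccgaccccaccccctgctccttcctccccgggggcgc
In the full windows of 250 bases, ITGA1 held 1 CANNTG, 211 bases before the start, and 16 CG dinucleotides, ITGA4 held no CANNTG and 25 CG, and LAMC1 held no CANNTG and 32 CG. Of 35116 RefSeq windows of that length, 61.8% held a CANNTG and the median number of CG was 11. The table held windows for 23 of the 32 genes, 29 windows in all, of which 15 held a CANNTG (51.7%). A match describes the letters only.

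ITGA7 (ENSG00000135424), the laminin-binding alpha chain of muscle, was at 73.35, 52.86, 17.22 and 62.31 CPM in control and at 35.08, 26.63, 10.85 and 26.38 CPM in siG9a. It was the most abundant alpha chain, it was lower in each of the 4 pairs, and the groups overlapped only through control replicate 3. The mean of 24.7 ± 10.1 CPM in siG9a was 48.1% of the control mean of 51.4 ± 24.3 CPM (SD, n = 4), with a log2 difference of -0.96 and SE 0.21 in the paired limma fit (adjusted p = 0.00315). The SE was 0.45 without the block (limma adjusted p = 0.414). METTL7B, which lies on the opposite strand across the 3′ end of ITGA7, was at 0.695 CPM in control and 0.988 CPM in siG9a, and the strand setting of the counting is not given in the sources used here. The other laminin-binding chains differed less: ITGA6 was at 15.7 ± 2.72 and 13.8 ± 3.54 CPM (SD, n = 4), and ITGA3 averaged 4.41 and 3 CPM, with paired limma adjusted p-values of 0.726 and 0.492.

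ITGA5, the alpha chain of the classical fibronectin receptor, had 39.76, 46.18, 12.91 and 24.4 CPM in control and 23.21, 20.58, 7.99 and 22.94 CPM in siG9a. All 4 pairs were lower in siG9a, with a log2 difference of -0.65 that did not pass (paired limma adjusted p = 0.0845). ITGA2B, a chain of platelet integrin, averaged 0.720 and 1.30 CPM, and ITGA8 had 1 read. Platelet markers summed to between 1.84 and 9.72 CPM in control and between 2.07 and 4.85 CPM in siG9a, most of it GP6 (5.50 and 2.59 CPM on average), with PF4, GP9 and GP1BA at 0. ITGAV, the partner of ITGB5 and ITGB8, falls outside the symbol rule and had 38.4 ± 16.3 and 28.2 ± 9.98 CPM (SD, n = 4), a log2 difference of -0.41 that did not pass (paired limma adjusted p = 0.271). Of the 6 integrin alpha chains outside the rule, 2 were tested, ITGAV and ITGAE, and limma called neither in either fit, nor did either have an unadjusted p under 0.05.

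ITGB1 (ENSG00000150093), the beta chain that pairs with most of the alpha chains above, was at 47.3, 58.94, 41.2 and 78.92 CPM in control and at 42.3, 49.63, 26.83 and 48.75 CPM in siG9a. It was lower in 4 of 4 pairs, with overlapping groups and a log2 difference of -0.42 that did not pass (limma adjusted p = 0.575, paired 0.152). Per 100 ITGB1 reads, ITGA1 gave between 29.9 and 66.7 reads in control and between 19.5 and 27.1 in siG9a, without overlap. ITGA4 gave 36.5 ± 5.79 and 19.3 ± 9.59 reads per 100 ITGB1 reads, and ITGA7 gave 91.4 ± 47.2 and 57.8 ± 17.9 (SD, n = 4), and both overlapped between the groups.

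ITGB5 (ENSG00000082781), which forms a vitronectin receptor with ITGAV, was at 141.21, 116.06, 45.5 and 63.35 CPM in control and at 63.96, 44.79, 22.84 and 92.33 CPM in siG9a. It was lower in pairs 1, 2 and 3 and higher in pair 4, and the groups overlapped widely. The log2 difference of -0.73, with SE 0.22, passed in the paired limma fit (adjusted p = 0.0354) and not without the block (0.530), and paired DESeq2 gave an adjusted p of 0.0826. The call was lost without pair 1, without pair 2 or without pair 3, where the paired log2 difference was -0.65 (limma adjusted p = 0.160). ITGB2, the leukocyte beta chain, averaged 9.55 ± 4.59 CPM against 4.88 ± 2.02 CPM (SD, n = 4), with a paired limma adjusted p of 0.200, while 8 leukocyte markers summed to between 2.44 and 11.99 CPM, with CORO1A at 0. ITGB8 averaged 3.79 and 5.69 CPM, the latter led by 14.44 CPM in siG9a replicate 1, and ITGB4, the partner of ITGA6 in hemidesmosomes, averaged 2 and 3.21 CPM. ITGB3, ITGB7 and ITGB6 had 7, 4 and 3 reads in all.

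**Figure D3:**
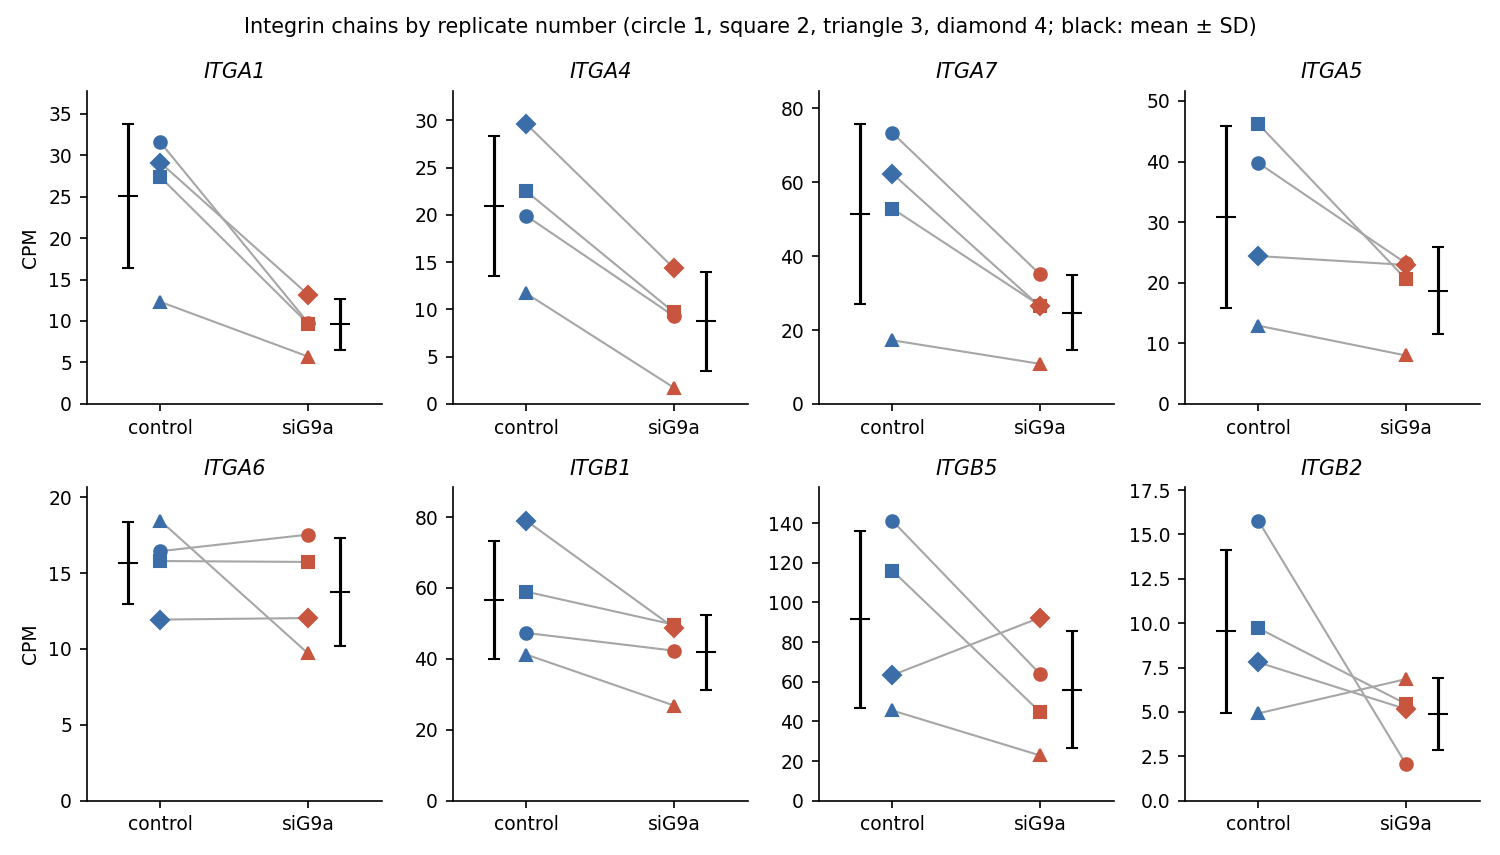
CPM of 8 integrin chains, on y axes that start at 0, with lines joining control and siG9a libraries of the same replicate number and black bars for mean ± SD (n = 4). ITGA1, ITGA4 and ITGA7 are lower in siG9a in 4 of 4 pairs, whereas ITGB5 is higher in pair 4.

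Over all 12 integrin alpha genes the sum ran from 89.76 to 187.15 CPM in control and from 46.24 to 101.1 CPM in siG9a, and the siG9a mean was 54.4% of the control mean. The 8 integrin beta genes summed to 164.6 ± 49.8 CPM without and 112.5 ± 39.3 CPM with the knockdown (SD, n = 4). Both sums were lower in 4 of 4 pairs, and both overlapped between the groups only through control replicate 3, at 89.76 and 98.38 CPM. The laminin beta sum was 83.3% and the laminin gamma sum 89.8% of control. The median log2 difference was -0.56 over the 14 tested integrin chains and -0.41 over the 9 tested laminin chains.

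**Figure D4:**
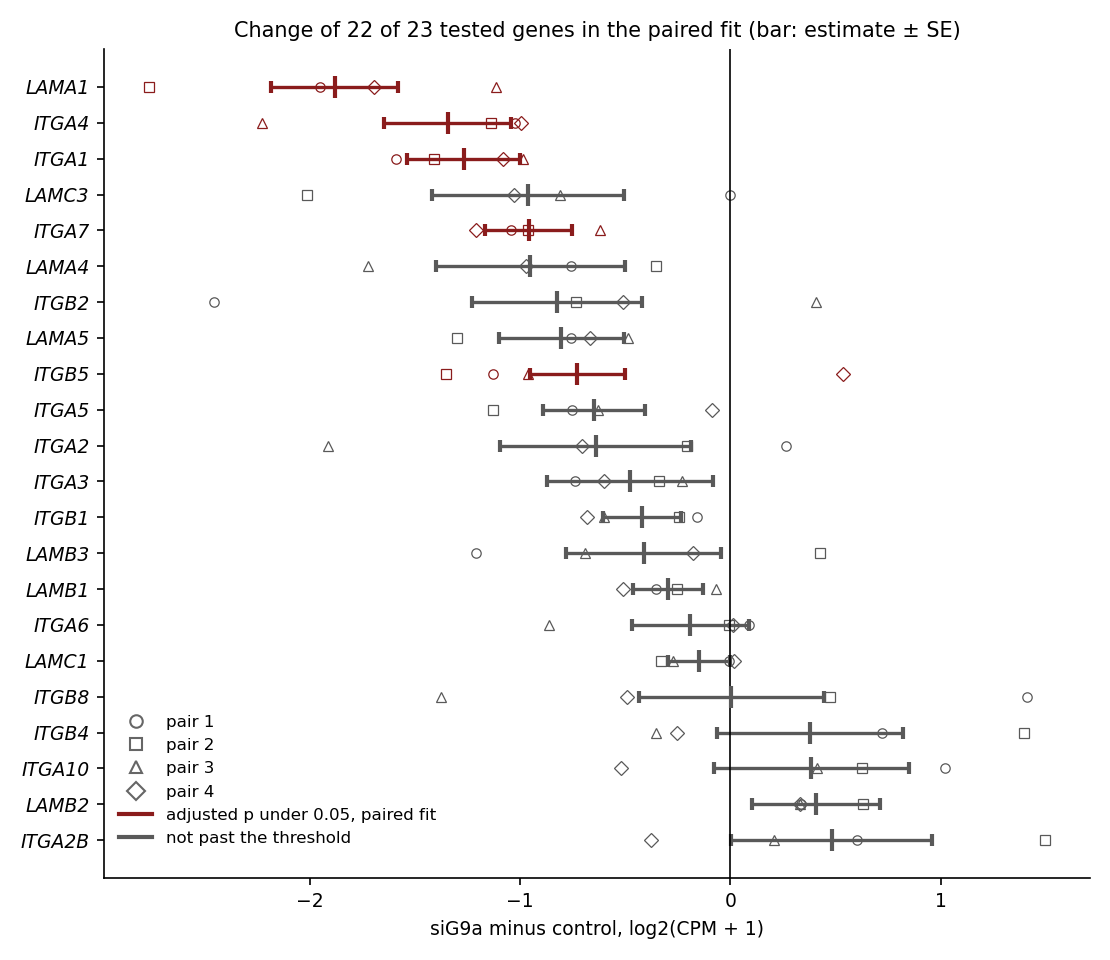
Difference of 22 of the 23 tested genes, siG9a minus control in log2(CPM + 1) on the x axis, with the paired estimate ± SE as a bar and each replicate pair as an open marker. Dark red marks the 5 genes with a paired adjusted p under 0.05, from LAMA1 at -1.88 to ITGB5 at -0.73, whose pair 4 lies above 0.

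Variation by replicate number was large for these genes. Replicate 3 was the lowest library in both groups for 10 of the 23 tested genes (43.5%), against 19.8% of all genes tested, and the highest in both for 4 (17.4%), against 20.1%. The 10 were ITGA1, ITGA4, ITGA5, ITGA7, ITGB1, ITGB5, ITGB8, LAMB1, LAMB2 and LAMC1, and the 4 were ITGA2B, ITGA3, LAMA4 and LAMC3. ITGA7 is an example, at 17.22 CPM in control replicate 3 against 52.86 to 73.35 CPM in the other controls. The muscle marker sum was lowest in the same libraries, and its part in these levels was not tested. With replicate 3 left out of both groups, the paired limma fit called 4 of the 23 genes, LAMA1, ITGA1, ITGA4 and ITGA7, all lower, against 4.59% of all genes called lower.

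Of the 10 muscle markers, 7 were tested and 4 fell in the paired fit, against 6.52% of all genes: DES, CHRNA1, CDH15 and FGFR4. Without any 1 pair 3 were called, and FGFR4 had a paired limma adjusted p of 0.0512 without pair 3. DES, the muscle intermediate filament, averaged 188 and 63.8 CPM (log2 difference -1.77, paired limma adjusted p = 6.69e-06). MYOD1, the myogenic master regulator, averaged 658 and 599 CPM and was not called (paired limma adjusted p = 0.935), and MYF5 was at 0. Their sum was lower in siG9a in each pair, and its part in the lower ITGA7 and LAMA1 was not tested. Fibroblast markers summed to between 118.05 and 408.55 CPM in control and between 51.95 and 322.9 CPM in siG9a, with POSTN at 0 and 1 of 5 tested genes lower, COL1A1, a call lost without pair 2 or pair 3. Epithelial markers summed to between 10.29 and 79.92 CPM and 25.79 and 45.1 CPM, with 1 of 5 tested genes lower, CDH1, a call lost without pair 2 or pair 4. The other 4 had log2 differences above 0, and KRT19 was called higher without pair 3 (paired limma log2 difference 2.06, adjusted p = 0.0182). None of the 2 leukocyte, 1 platelet and 4 neural markers tested was called in the paired limma fit, where 1 neural marker had an unadjusted p under 0.05.

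Genes that act with integrins and laminins were read from the same fits. None of them was called by limma without the block. The unadjusted limma p was under 0.05 there for 5 genes of the laminin receptor list, 3 ligands and 3 of 29 adhesion genes (10.3%). Over all genes the share was 12.5%. The list of laminin receptors other than integrins held 6 genes, counting CD151, which is a partner of integrins. Of the 6, 5 were called in the paired fit, 4 lower and 1 higher, against 6.52% and 4.86% of all genes tested. SDC2, a syndecan, fell from 55.0 ± 18.2 to 28.5 ± 16.2 CPM (SD, n = 4; log2 difference -1.03, paired limma adjusted p = 0.00269), and CD151, a tetraspanin that associates with laminin-binding integrins, fell from 91.5 ± 25.9 to 56.5 ± 11.1 CPM (SD, n = 4; -0.66, adjusted p = 0.0139). SDC4, a syndecan of focal adhesions, was at 18.51, 13.37, 8.61 and 22.33 CPM in control and 51.07, 31.47, 22.27 and 40.15 CPM in siG9a, so that it rose in every pair (log2 difference 1.17, paired limma adjusted p = 0.00146). SDC1, lower in 3 of 4 pairs, and BCAM, a receptor for LAMA5, were also called lower, and DAG1, dystroglycan, was not (log2 difference -0.58, paired limma adjusted p = 0.1). The count was 2 without pair 1, 1 without pair 2 and 3 without pair 3, where CD151 had a paired limma adjusted p of 0.0519.

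Of 20 other basement membrane and integrin ligand genes, 12 were tested, 11 had a log2 difference below 0, against 48.9% of all genes, and 4 fell in the paired fit, against 6.52%, with a median of -0.50. HSPG2, the heparan sulfate proteoglycan perlecan, was at 541.53, 517.71, 93.47 and 490.68 CPM in control and 220.77, 213.65, 59.38 and 276.43 CPM in siG9a (log2 difference -1.01, paired limma adjusted p = 7.52e-05). FBLN1, a matrix glycoprotein, was at 73.35, 66.23, 35.05 and 70.1 CPM in control and 27.34, 33.29, 11.42 and 31.54 CPM in siG9a, which did not overlap (-1.26, paired limma adjusted p = 0.000154). SPARC fell by 0.92 and TNC, tenascin-C, by 0.96 on the log2 scale (paired limma adjusted p = 0.00161 and 0.00812). The siG9a libraries lay wholly below the controls for 2 of the 12 tested genes, FBLN1 and TNC, against 3.45% of all genes. FN1, fibronectin, the ligand of the receptors that ITGA4 and ITGA5 form, was the most abundant, and its log2 difference of -0.13 did not pass (paired limma adjusted p = 0.605). The count of calls in this list was 3 without pair 2 or pair 3, and SPARC without pair 3 had a paired limma adjusted p of 0.0541.

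Inside the cell, 29 of 30 adhesion genes were tested and the differences were split, with 15 below 0, 14 above 0 and a median of -0.05. In the paired fit 3 fell (10.3%) and 1 rose (3.45%), near the 6.52% and 4.86% of all genes. LIMS2 and LIMS1, adaptors that join integrin-linked kinase to actin, fell by 1.67 and 1.08 on the log2 scale (paired limma adjusted p = 0.00114 and 0.00104), LIMS1 in 3 of 4 pairs. LIMS1 has near-identical copies in the genome, so its reads may be shared with them. VCL, vinculin, fell by 0.67 (paired limma adjusted p = 0.0263), also in 3 of 4 pairs, and FERMT3, the kindlin of blood cells, rose by 0.86 (0.0490). The most abundant, FLNA, ACTN4 and ACTN1, which crosslink actin, were not called, with log2 differences of -0.05, 0.50 and 0.16. Without pair 3 the count was 2, LIMS1 and LIMS2, and paired DESeq2 called 1, LIMS2.

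**Figure D5:**
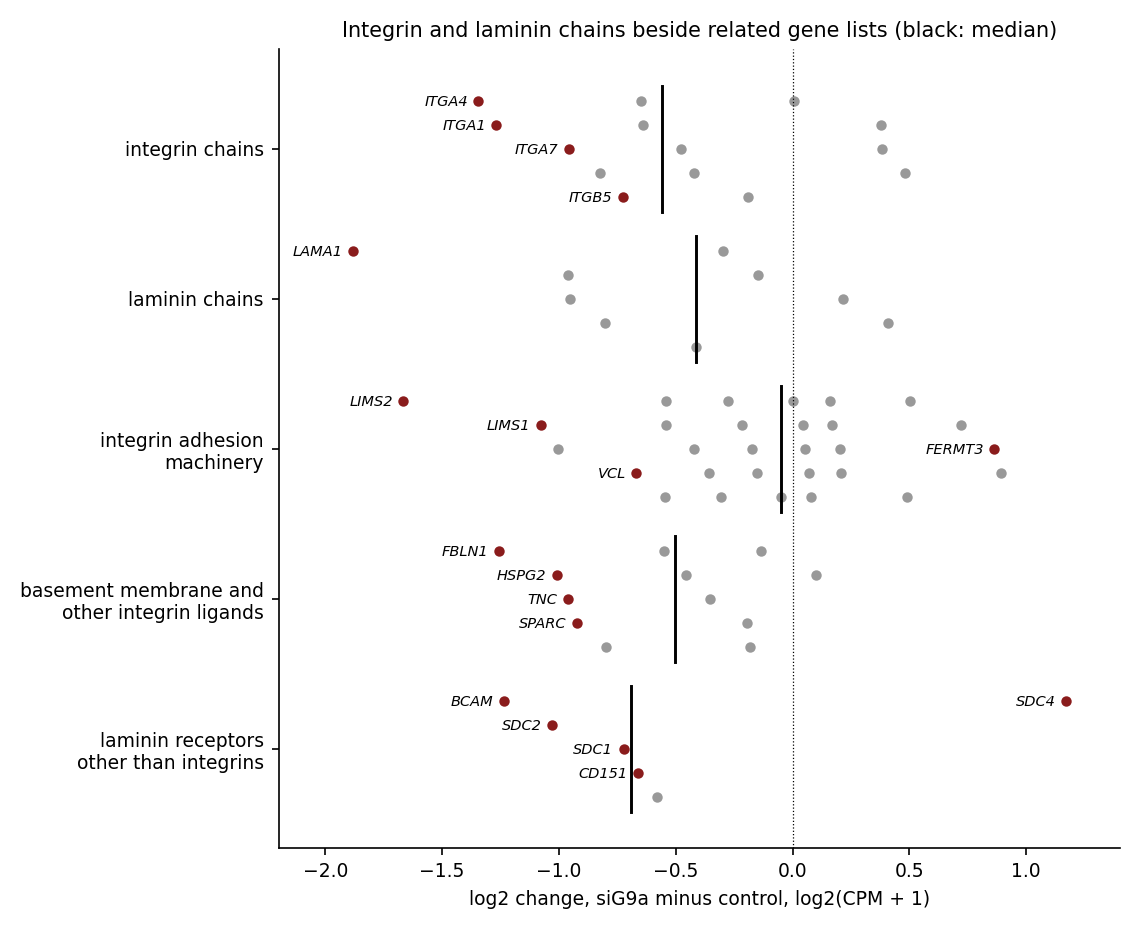
Log2 difference, siG9a minus control, of tested integrin and laminin chains beside 3 related gene lists, 1 point per gene, with dark red for a paired adjusted p under 0.05 and a black bar for the median of each list. The integrin and laminin chains have medians of -0.56 and -0.41, the ligands -0.50 and the adhesion machinery -0.05, and SDC4 and FERMT3 are the called genes above 0.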

How the data were processed

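RNA of Rh41 cells was extracted with TRIzol, made into QuantSeq 3′ libraries and read in single-end mode on a NextSeq500, per the labels' protocols. The submitters' processing notes name FastQC 0.11.8, Trim Galore, STAR 2.5.0a, HTSeq 0.8.0 and edgeR 3.28, and both GRCh38 and hg19; which build the counts use and the use of strand are not given in the sources used here. The authors deposited CPM, counts scaled to each library's total, for 60234 genes. Nonzero values were whole multiples of 1 read in 100% of cases (tolerance 0.0075 CPM), so whole reads were recovered from the deposited values; these were run as an alternative, and edgeR without the block called 0 genes and DESeq2 291.

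The test was limma 3.58.1 (R 4.3.3, eBayes with trend, two-sided) on log2(CPM + 1), for the 15092 genes averaging 1 CPM or more, with Benjamini-Hochberg adjustment over all of them and a threshold of 0.05. Fold changes of low genes are understated on that scale. The paired fit added the replicate number in the titles, which the labels do not explain. Same-numbered libraries deviated together from their group means for replicates 1 and 3, with correlations across genes of 0.50 and 0.673. For replicates 2 and 4 the correlations were low, at 0.104 and 0.13. Control replicate 2 and siG9a replicate 4 correlated best with a library of another number. Alternatives were pseudocounts of 0.1 and 5, no filter or 5 CPM, other scalings, eBayes without trend or robust, edgeR 4.0.16, DESeq2 1.42.0, and leaving out libraries or pairs. The scripts were tested on simulated data.

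Genes of the rule were given in full where they passed in either fit, did not overlap between groups, or averaged at least 30 CPM; in related lists up to 3 genes by adjusted p and 3 by level were named, and other called genes were named after their values were seen. The genes and lists were chosen with earlier results of these data known. An exon of another gene overlaps 18 of the 32 genes in GENCODE release 29, 3 of them within the last 1000 bases (ITGA7, ITGB7 and LAMA5). Some single values are not reported here, although they are included in counts, sums and medians.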

Additional observations from a re-analysis of the deposited data

Results flagged for a closer look

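Gaps within groups of 4 libraries were compared with Dixon's 95% critical value for 22 tested integrin and laminin genes. Of 44 groups, 2 had 1 library far from the others, where chance gives about 2.2. ITGA10 was at 2.42 CPM in siG9a replicate 2 and between 1.03 and 1.15 CPM in the other siG9a libraries, differences of a few reads. LAMA4 was at 9.84 CPM in control replicate 3, the library that was low for LAMA1, ITGA1 and ITGA7, and between 0.69 and 2.08 CPM in the other controls.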

How the results depend on the processing

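Without the replicate block, limma called 0 genes, and 18 with no filter, 291 with DESeq2 and 1717 with the block. Leaving out single libraries gave 0 to 300, with 300 without control replicate 3 and 2 without siG9a replicate 4, and leaving replicate 3 out of both groups gave 413. Of the integrin and laminin genes it called 0, and 2 with DESeq2, 5 with the block, 0 to 2 when single libraries were left out (ITGA1 and LAMA1 without control replicate 3), and 3 without replicate 3 in both groups, these with ITGA7. The paired fit called 1717 genes, and 840 with no filter, 0 with eBayes without trend, 969 with DESeq2, 0 with no replicate block, and 668 to 1393 when a pair was left out (988 without pair 1, 668 without pair 2, 1078 without pair 3). Of the integrin and laminin genes it called 5, and 0 with eBayes without trend or with no replicate block, and 4 to 5 when a pair was left out. LAMA1, ITGA1, ITGA4 and ITGA7 were called in 14 of 15 paired alternatives each, all but eBayes without trend, and ITGB5 in 6 of 15. The log2 difference of EHMT2 was -1.10 with the replicate block (limma adjusted p = 0.000472, a call lost with eBayes without trend) and ran from -1.27 to -0.96 when a pair was left out. Without the block it ran from -1.35 to -0.84 when libraries were left out. Of 1189 other values compared, 1102 kept their direction and side of the threshold and no called value reversed. Among uncalled genes without the block, ITGA6 ran from -0.31 to 0.03, LAMB3 from -0.66 to 0.02 and ITGB8 from -0.56 to 0.61. The causes of these differences were not tested. With 1 read worth at least 0.516 CPM, values near 1 CPM rest on a few reads, which limits their precision.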
